A study of Mus musculus with 6 samples.

Results

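Cells take up, bind and pass on fatty acids and lysolipids through a small set of proteins, and the genes of 9 of them are described here: Cd36, Slc27a1, Slc27a2, Slc27a4, Mfsd2a, Fabp1, Fabp2, Fabp4 and Fabp5. They were chosen by name and are 9 of the 18820 genes that the arrays measured under a single symbol. Primary hepatocytes were isolated by perfusion and digestion of livers of male wildtype C57BL/6J mice 8 to 10 weeks of age. They were grown in 60 mm dishes and transduced with Ad-nuclear CREBH or Ad-GFP at a multiplicity of infection (viral particles per cell) of 100. Ad-nuclear CREBH encodes the N-terminal, active fragment of CREBH, a transcription factor of the liver that is released from the ER membrane, and its vector carries the strong CMV promoter, so that the fragment is made independently of the signals that release it. Ad-GFP, the control, encodes green fluorescent protein. RNA was collected 24 h after transduction from 3 dishes per group, all of them wildtype cells exposed to adenovirus (untransduced cells were not analysed here), and each RNA was read on its own Affymetrix Mouse Gene 1.1 ST array.

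Long-chain fatty acids enter cells with the help of CD36, a scavenger receptor of the plasma membrane, and of the fatty acid transport proteins of the SLC27 family, which also join fatty acids to coenzyme A. MFSD2A carries lysophosphatidylcholine into cells, best known for docosahexaenoic acid at the blood-brain barrier. Inside the cell, fatty acid binding proteins (FABPs) keep the lipids soluble, and each FABP is known from particular tissues, FABP1 from liver, FABP2 from the small intestine, FABP4 from adipocytes and macrophages and FABP5 from skin.

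All values are log2 expression values that the authors deposited after RMA, a method of background correction, normalization and summary of the probes of each transcript. The median of all genes lay between 5.05 and 5.30 on the 6 arrays. So few arrays limit how precise any value here can be. A gene rose or fell, as the words are used here, where limma gave an adjusted p under 0.05 for Ad-nuclear CREBH against Ad-GFP (Benjamini-Hochberg, 18820 genes). The sources do not say whether separate animals gave the dishes, and these p-values measure the spread between dishes. Creb3l3, the gene of CREBH, was higher by 2.10 on the log2 scale (SE 0.19, adjusted p = 9.0e-05), in which the viral and the mouse transcript cannot be told apart. Of 10 measured hepatocyte markers, Apoa1 rose by 0.74 on the log2 scale, and Tdo2, Fgb, Tat and Cps1 fell by 4.22, 2.29, 2.17 and 1.21. The other 5 did not pass the test, among them Alb (albumin) and Serpina1b (an antitrypsin), the brightest by the mean over the 6 arrays, at 13.27 and 12.60 in Ad-nuclear CREBH dishes and at 13.28 and 12.57 in Ad-GFP dishes. In both groups the array numbered 1 had the lowest mean correlation across genes with the arrays of its own group. It was 0.991 in Ad-nuclear CREBH, against 0.994 and 0.994 for replicates 2 and 3. In Ad-GFP it was 0.986, against 0.991 and 0.991. These differences are small, and values without 1 or both of the arrays numbered 1 stand beside several of the results below.

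The 9 genes held changes in both directions. Fabp2 and Mfsd2a rose, Cd36 and Slc27a4 fell, and Fabp1, Fabp4, Fabp5, Slc27a1 and Slc27a2 did not pass the test. In all, 2 of 9 rose, where 19.2% of all genes rose, and 2 of 9 fell, where 18.2% of all genes fell, so that the shares of the members lie near those of all genes. On the deposited scale 3615 of all genes rose and 3427 fell. Subtracting the median of each array gave 4814 and 2852 genes, while the calls of the 9 genes did not change. Their median log2 fold change was -0.22, against 0.039 for all genes. The 3 arrays of one group lay entirely apart from those of the other for 4 of the 9 genes, which is the case for 49.4% of all genes. The size of the changes ranged widely, with Fabp2 9.02-fold higher and Cd36 17.2-fold lower in Ad-nuclear CREBH dishes.

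**Figure D1:**
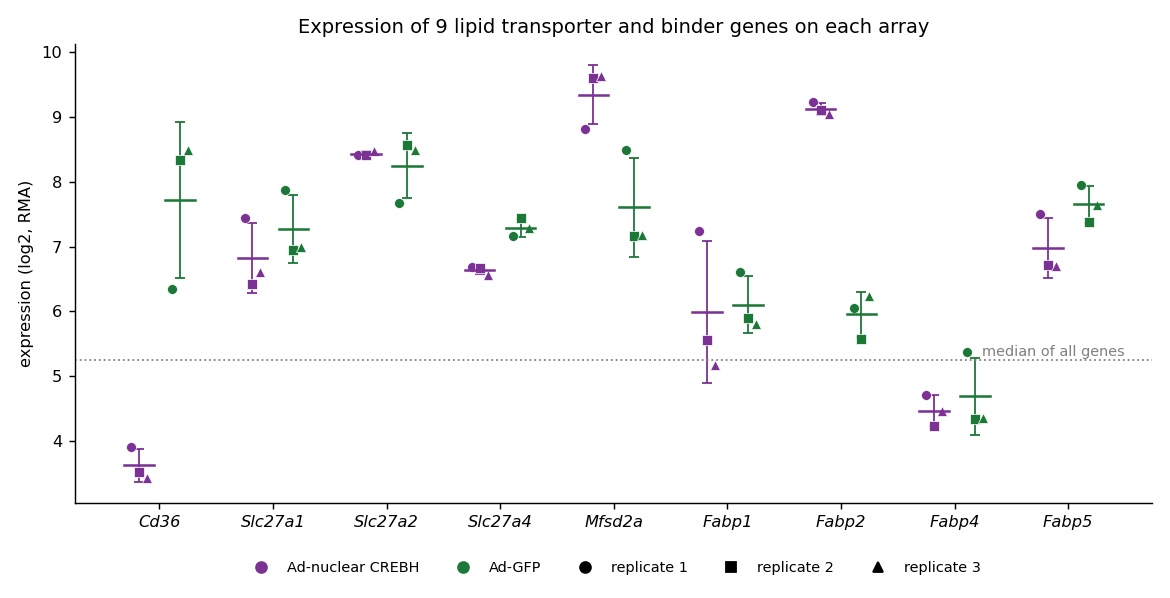
Expression (log2, RMA) of the 9 genes on each of the 6 arrays, with Ad-nuclear CREBH in purple and Ad-GFP in green and a different marker for each replicate number. Long bars are group means, error bars are SD (n = 3 each) and the dotted line is the median of all genes, 5.24. The groups do not overlap for Cd36, Slc27a4, Mfsd2a and Fabp2, and replicate 1 of Ad-GFP, at 6.34 for Cd36, lies far below the other Ad-GFP arrays.

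The sequences around the start sites of the 4 genes that rose or fell are shown because CREBH acts on DNA, as the base for the short search that follows. Each window is taken from RefSeq (GRCm38.p6), runs 5′ to 3′ along the gene, and spans 250 bases before to 50 bases after the start. Capitals mark AGGTCA or its reverse complement TGACCT, a short site that many nuclear receptors, PPARα among them, are known to bind. The window of Fabp2 is chr3:122894822-122895121 (plus strand), that of Mfsd2a chr4:122961139-122961438 (minus strand), that of Cd36 chr5:17835847-17836146 (minus strand) and that of Slc27a4 chr2:29802384-29802683 (plus strand).
Fabp2: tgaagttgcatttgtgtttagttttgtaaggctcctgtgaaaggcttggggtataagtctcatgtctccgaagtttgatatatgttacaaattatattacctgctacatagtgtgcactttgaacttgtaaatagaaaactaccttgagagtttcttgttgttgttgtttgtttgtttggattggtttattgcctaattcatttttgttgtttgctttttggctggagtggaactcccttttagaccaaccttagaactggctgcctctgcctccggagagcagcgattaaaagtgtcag
Mfsd2a: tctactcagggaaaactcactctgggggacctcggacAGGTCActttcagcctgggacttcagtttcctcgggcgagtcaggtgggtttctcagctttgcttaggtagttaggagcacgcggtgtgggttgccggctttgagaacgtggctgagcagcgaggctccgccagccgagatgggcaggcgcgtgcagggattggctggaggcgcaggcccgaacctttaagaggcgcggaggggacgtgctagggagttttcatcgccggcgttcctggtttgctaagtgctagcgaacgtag
Cd36: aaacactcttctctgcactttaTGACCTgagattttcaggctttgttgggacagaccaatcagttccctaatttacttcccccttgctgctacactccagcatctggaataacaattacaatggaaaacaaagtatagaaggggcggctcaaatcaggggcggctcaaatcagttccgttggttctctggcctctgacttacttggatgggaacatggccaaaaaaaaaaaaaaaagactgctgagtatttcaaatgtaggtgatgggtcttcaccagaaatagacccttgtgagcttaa
Slc27a4: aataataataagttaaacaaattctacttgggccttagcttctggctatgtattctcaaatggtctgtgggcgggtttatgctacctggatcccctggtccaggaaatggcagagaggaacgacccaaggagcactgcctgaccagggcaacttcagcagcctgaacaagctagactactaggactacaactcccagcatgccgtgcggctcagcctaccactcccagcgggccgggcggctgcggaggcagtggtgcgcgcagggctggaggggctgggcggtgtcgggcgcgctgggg
RefSeq windows were matched for 7 of the 9 genes, 9 windows in all. No window of the 7 genes held TGACGTCA, the cAMP response element that CREB family factors are known to bind, on either strand, and none held TGACGT, the part of it that such factors also bind. No other site that CREBH may bind was searched, so that the absence covers these letters only. Of 32851 mouse promoter windows, 1.79% held TGACGTCA and 7.51% held TGACGT, which includes every TGACGTCA. An exact direct repeat of AGGTCA with 1 base between the copies, a known site of PPAR with RXR, was in no window of the 7 genes. It was in 0.0396% of all windows. Repeats with a mismatch were not searched, so that the absence does not extend to them. A single AGGTCA on either strand, searched after the other motifs had been read, was in windows of 4 of the 7 genes, namely Cd36, Fabp1, Slc27a2 and Mfsd2a. It was in 16.3% of all windows. The first count is of genes, which had up to 3 windows each, and the share is of windows, so that the 2 are not directly comparable. The windows of Fabp2 and Cd36 had a GC content of 38.7% and 43%, and those of Slc27a4 and Mfsd2a one of 58.7% and 60.3%, against a median of 52.7% over all windows. A match describes these letters in this window, and no binding was measured.

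Among the proteins of uptake, Cd36 fell the most. Its log2 values were 3.91, 3.53 and 3.43 in Ad-nuclear CREBH dishes, against 6.34, 8.33 and 8.49 in Ad-GFP dishes. The groups were separated by 2.43 on the log2 scale between their nearest arrays, and the values of the Ad-nuclear CREBH dishes lay below the median of all genes. Cd36 averaged 3.62 ± 0.25 in Ad-nuclear CREBH dishes and 7.72 ± 1.20 in Ad-GFP dishes (SD, n = 3 each), a log2 fold change of -4.10 (SE 0.52, 95% confidence interval -5.30 to -2.91, adjusted p = 4.6e-04). RMA values have no flag for background, so that the fold change of a gene this dim in one group can be understated. It was the 52nd largest fall of the 18820 genes. Replicate 1 of Ad-nuclear CREBH lay 0.43 from the mean of its replicates 2 and 3, toward the Ad-GFP arrays, and that of Ad-GFP differed from its own by -2.07, toward the Ad-nuclear CREBH arrays, and without both the log2 fold change was -4.94.

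Cd36 is also a gene of macrophages, and markers of other cell types were read beside it. For the marker counts here and below, 19.2% of all genes rose and 18.2% fell. Of 12 macrophage markers, 4 fell and 1 rose, and their summed linear level ranged from 1300 to 2740 in Ad-nuclear CREBH dishes and from 3621 to 4467 in Ad-GFP dishes. The brightest of them were Cd68, a lysosomal protein, whose log2 fold change was -1.13 (adjusted p = 0.0215), and Cd14, the lipopolysaccharide co-receptor that hepatocytes can also make, whose log2 fold change was -3.07 (adjusted p = 2.5e-05). Cd68 and Cd14 made up most of the summed level, so that the sum says little of the other markers. Their linear group means were 1308 and 109 in Ad-nuclear CREBH dishes, against 2868 and 914 in Ad-GFP dishes. Cd5l, a secreted protein of Kupffer cells, and Lyz2, a lysozyme, also fell, by 0.64 (adjusted p = 0.0374) and 0.57 (adjusted p = 0.0403). Csf1r, a growth factor receptor, rose by 0.61 (adjusted p = 0.0254). The other 7 did not pass the test. Marco, a scavenger receptor of Kupffer cells, was among these, at 5.54 in Ad-nuclear CREBH dishes and 5.93 in Ad-GFP dishes, above the median of all genes in both groups. The Kupffer cell markers Clec4f, Vsig4 and Timd4 were at 3.93, 3.13 and 3.08 in Ad-nuclear CREBH dishes and at 3.67, 3.18 and 3.20 in Ad-GFP dishes, below that median in both groups. Adgre1, C1qa and Ptprc, with log2 fold changes of 0.15, 0.15 and 0.04, were also below it in both groups. In all, 7 of the 12 were below it in Ad-nuclear CREBH dishes and 8 in Ad-GFP dishes. Of 12 endothelial markers 1 rose and none fell, with Egfl7 at 7.50 in Ad-nuclear CREBH dishes and 5.65 in Ad-GFP dishes, and Cdh5, the VE-cadherin of endothelial junctions, at 6.62 in Ad-nuclear CREBH dishes and 6.61 in Ad-GFP dishes. Of 10 stellate cell and fibroblast markers 1 fell (Reln, log2 fold change -1.90) and none rose, although Col1a1, the brightest, was at 1.63 on that scale (adjusted p = 0.0619). Of 6 cholangiocyte markers 1 rose (Epcam, 1.74) and 2 fell, and Sox9, the brightest, had a log2 fold change of 0.58 (adjusted p = 0.278). The part of these cells in the fall of Cd36 was not tested, and in RNA of a whole dish fewer cells of a type and less RNA per cell cannot be told apart.

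Of the 3 genes of fatty acid transport proteins, Slc27a4 fell, and Slc27a1 and Slc27a2 did not pass the test. Slc27a4 encodes FATP4, an acyl-CoA synthetase of internal membranes best known from intestine and skin. It had log2 values of 6.69, 6.67 and 6.57 in Ad-nuclear CREBH dishes, against 7.16, 7.43 and 7.28 in Ad-GFP dishes. The groups did not overlap, with a gap of 0.47, and the arrays of each group lay close together. Slc27a4 fell, at 6.64 ± 0.065 in Ad-nuclear CREBH dishes and 7.29 ± 0.14 in Ad-GFP dishes (SD, n = 3 each), a log2 fold change of -0.65 (SE 0.14, 95% confidence interval -0.97 to -0.33, adjusted p = 0.00697), or 1.57-fold lower.

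Slc27a1 encodes FATP1, an insulin-responsive transporter of muscle and fat. Its log2 values were 7.44, 6.42 and 6.61 in Ad-nuclear CREBH dishes, against 7.88, 6.95 and 6.99 in Ad-GFP dishes. The groups overlapped, since replicate 1 was the highest array of each group, 0.92 above the mean of the other arrays in Ad-nuclear CREBH dishes and 0.91 in Ad-GFP dishes. The log2 fold change of Slc27a1 was -0.45 (SE 0.33, 95% confidence interval -1.22 to 0.31, adjusted p = 0.342), and with both arrays numbered 1 left out it was -0.46 (adjusted p = 0.00707). Slc27a2 encodes FATP2, the liver's very long-chain acyl-CoA synthetase of peroxisomes and ER. It was at 8.41, 8.41 and 8.48 in Ad-nuclear CREBH dishes, against 7.67, 8.57 and 8.50 in Ad-GFP dishes, with all Ad-nuclear CREBH values inside the range of Ad-GFP. Its log2 fold change was 0.19 (SE 0.23, 95% confidence interval -0.35 to 0.72, adjusted p = 0.584). Without Ad-GFP replicate 1, the lowest array, the log2 fold change of Slc27a2 was -0.10, still without passing the test.

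Mfsd2a, the lysophosphatidylcholine transporter, is a gene that the study itself singled out from these arrays, so its direction here is not independent evidence. Its log2 values were 8.82, 9.60 and 9.62 in Ad-nuclear CREBH dishes, against 8.49, 7.16 and 7.18 in Ad-GFP dishes. The groups did not overlap, but their nearest arrays, both numbered 1, lay only 0.33 apart, while replicates 2 and 3 were close to each other in each group. Mfsd2a rose, averaging 9.35 ± 0.46 in Ad-nuclear CREBH dishes and 7.61 ± 0.76 in Ad-GFP dishes (SD, n = 3 each), a log2 fold change of 1.74 (SE 0.38, 95% confidence interval 0.86 to 2.61, adjusted p = 0.00756), or 3.34-fold. Without both arrays numbered 1 the log2 fold change was 2.44 (adjusted p = 6.5e-08). By rise Mfsd2a was number 739 of the 18820 genes.

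Of the binding proteins, Fabp2, the intestinal FABP, rose, and the liver FABP did not pass the test. Fabp2 was at 9.23, 9.11 and 9.05 in Ad-nuclear CREBH dishes, against 6.06, 5.57 and 6.23 in Ad-GFP dishes. The nearest arrays of the groups were 2.81 apart, and the Ad-nuclear CREBH arrays lay close together. Fabp2 averaged 9.13 ± 0.092 in Ad-nuclear CREBH dishes and 5.95 ± 0.34 in Ad-GFP dishes (SD, n = 3 each), a log2 fold change of 3.17 (SE 0.19, 95% confidence interval 2.74 to 3.61, adjusted p = 2.2e-05). It was number 151 by rise of the 18820 genes, close to Fgf21, the hormone gene used in the study as a CREBH target, which had a log2 fold change of 3.28.

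Fabp1, known as the abundant fatty acid binding protein of liver, had log2 values of 7.24, 5.56 and 5.17 in Ad-nuclear CREBH dishes, against 6.61, 5.89 and 5.81 in Ad-GFP dishes. Its single feature did not read as abundant here. The mean percentile of Fabp1 among all genes was 57.8 in Ad-nuclear CREBH dishes and 57.2 in Ad-GFP dishes. The groups overlapped widely, and the highest array of each was replicate 1. The log2 fold change of Fabp1 was -0.11 (SE 0.50), and its 95% confidence interval, -1.27 to 1.04, leaves room for a change of more than 2-fold either way (adjusted p = 0.886). Its value without each array in turn lay between -0.74 and 0.30, and without both arrays numbered 1 it was -0.49 (adjusted p = 0.0312).

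Fabp4, the adipocyte FABP, was at 4.71, 4.24 and 4.46 in Ad-nuclear CREBH dishes, against 5.37, 4.34 and 4.35 in Ad-GFP dishes. The groups overlapped, with group means below the median of all genes in both and only Ad-GFP replicate 1 above it. The log2 fold change of Fabp4 was -0.22 (SE 0.29, 95% confidence interval -0.88 to 0.45, adjusted p = 0.615). Without Ad-GFP replicate 1 it was 0.13, and without both arrays numbered 1 it was 0.0025. Of 6 adipocyte markers 2 rose and none fell, Cidea, a lipid droplet protein, by 3.94 on the log2 scale (adjusted p = 5.2e-04) and Lipe, the hormone-sensitive lipase, by 0.71 (adjusted p = 0.0181). Adipoq, Plin1, Lep and Retn, which define adipocytes, were below the median of all genes in both groups.

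Fabp5, the epidermal FABP, was read by 3 features. On the brightest, its log2 values were 7.51, 6.71 and 6.70 in Ad-nuclear CREBH dishes, against 7.95, 7.38 and 7.64 in Ad-GFP dishes. Replicate 1 of Ad-nuclear CREBH, the highest of its group, fell inside the range of the Ad-GFP arrays. The log2 fold change of Fabp5 was -0.68 (SE 0.25, 95% confidence interval -1.27 to -0.099, adjusted p = 0.0681), which did not pass the test, and without Ad-nuclear CREBH replicate 1 it was -0.95 (adjusted p = 0.00868). In a fit over all 21218 features, the second feature of Fabp5 averaged 6.89 in Ad-nuclear CREBH dishes and 7.63 in Ad-GFP dishes, and its log2 fold change was -0.74 with an adjusted p of 0.0446 (SE 0.24). The brightest had an adjusted p of 0.0690 in that fit. The third feature was dim, at 4.67 in Ad-nuclear CREBH dishes and 4.81 in Ad-GFP dishes (log2 fold change -0.14, adjusted p = 0.651). The features therefore fall on both sides of the threshold, and probes for this gene may also bind near-identical copies. Each of the other 8 genes had 1 feature.

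**Figure D2:**
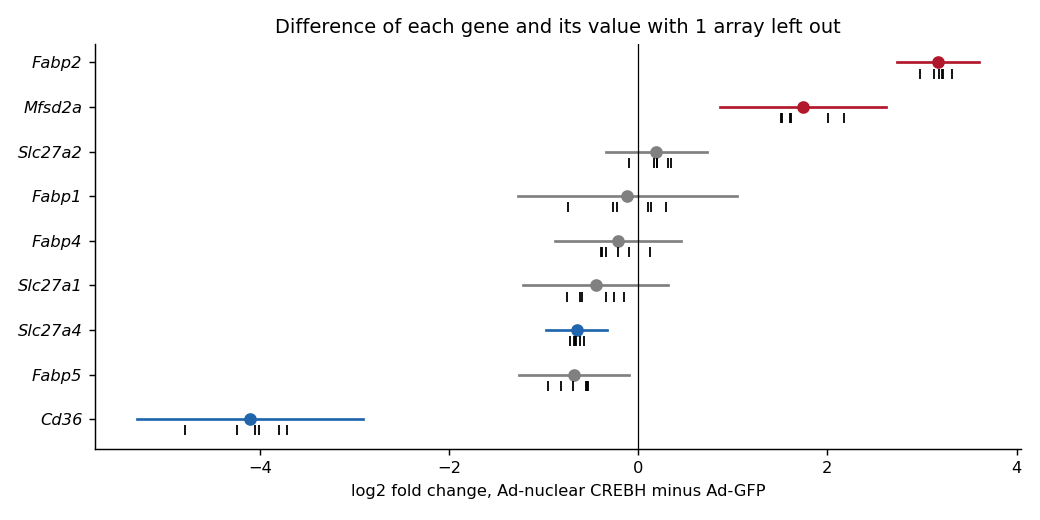
Log2 fold change (Ad-nuclear CREBH minus Ad-GFP) of the 9 genes, ordered by value, with the 95% confidence interval as a line and, below it, a tick for the value with each of the 6 arrays left out in turn. Red marks genes that rose, blue genes that fell and gray genes that did not pass the test. The ticks of Fabp2 (2.98 to 3.31), Mfsd2a (1.51 to 2.18), Slc27a4 (-0.72 to -0.58) and Cd36 (-4.79 to -3.72) stay on one side of 0.

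To find out whether related proteins changed unequally, the log2 ratio of 5 pairs of genes was formed on each array, and the p-values were adjusted over the 5 pairs. Of these, only the pair of the liver and the intestinal FABP passed the test with limma. The log2 fold change of Fabp1 minus that of Fabp2 was -3.29 (SE 0.47, 95% confidence interval -4.26 to -2.32, adjusted p = 3.8e-06 with limma). The ratio on the arrays did not overlap between groups. Its exact two-sided permutation p was 0.1, the smallest that 3 arrays against 3 can give, and 0.25 after adjustment over the 5 pairs. The limma fit pools variance over the 5 pairs, which share genes and arrays, so that its p-values and intervals may overstate the precision. Slc27a2 minus Slc27a4 gave 0.84 (95% confidence interval 0.013 to 1.66, adjusted p = 0.117 with limma). The ratio of this pair did not overlap between groups either (exact permutation p = 0.1, adjusted 0.25). Without Ad-GFP replicate 1 the pair gave 0.62 (adjusted p = 0.0437 with limma). Slc27a1 minus Slc27a4 gave 0.20 (95% confidence interval -0.70 to 1.10). Fabp4 minus Fabp5 gave 0.46 (-0.37 to 1.30), and Fabp1 minus Fabp5 gave 0.57 (-0.30 to 1.44). These 3 adjusted p-values were 0.648, 0.322 and 0.316 with limma. The intervals are wide, so that these pairs are not shown to act alike.

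The criteria of the study's methods were read here as a fold of Ad-nuclear CREBH over Ad-GFP above 2 or below 0.5, an expression value over 300, and a p under 0.001 without adjustment. By this reading only Fabp2 of the 9 genes was upregulated and none was downregulated, where 4.91% of all genes were upregulated and 3.1% downregulated. The expression value is taken here as the linear group mean, over the minimum in at least 1 group. Cd36 was left out by its level, with an expression value of 12.3 in Ad-nuclear CREBH dishes and 211 in Ad-GFP dishes. Mfsd2a, with expression values of 651 in Ad-nuclear CREBH dishes and 195 in Ad-GFP dishes, was left out by its p of 0.00182 in the limma fit. The study computed its own moderated statistic, so its call for Mfsd2a may differ from this reading. Without Ad-GFP replicate 1 the criteria took in 3 of the 9 genes and 8.95% of all genes.

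The arrays numbered 1 had a like position in both groups for several of these genes. Replicate 1 was the highest array of both groups for 4 of the 9, Fabp1, Fabp4, Fabp5 and Slc27a1, as it was for 15.4% of all genes, and the lowest of both for 1, Slc27a2, as for 22.9% of all genes. For Cd36, Mfsd2a and Slc27a4 the array numbered 1 lay toward the other group in both groups. Mfsd2a was 0.79 below the mean of the other arrays in Ad-nuclear CREBH dishes and 1.32 above it in Ad-GFP dishes. For Slc27a4 the same differences were small, 0.07 in Ad-nuclear CREBH dishes and -0.20 in Ad-GFP dishes. Fabp2 differed by 0.15 in Ad-nuclear CREBH dishes and by 0.16 in Ad-GFP dishes. The pooled SD within groups was 0.87 for Cd36, 0.84 for Fabp1, 0.63 for Mfsd2a and 0.53 for Slc27a1. Among genes of a like level, within 0.5 on the log2 scale, 99.1% had a smaller SD than Cd36, 98.6% than Fabp1, 98.0% than Mfsd2a and 94.9% than Slc27a1, but only 13.9% than Slc27a4. What sets the arrays numbered 1 apart was not tested.

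**Figure D3:**
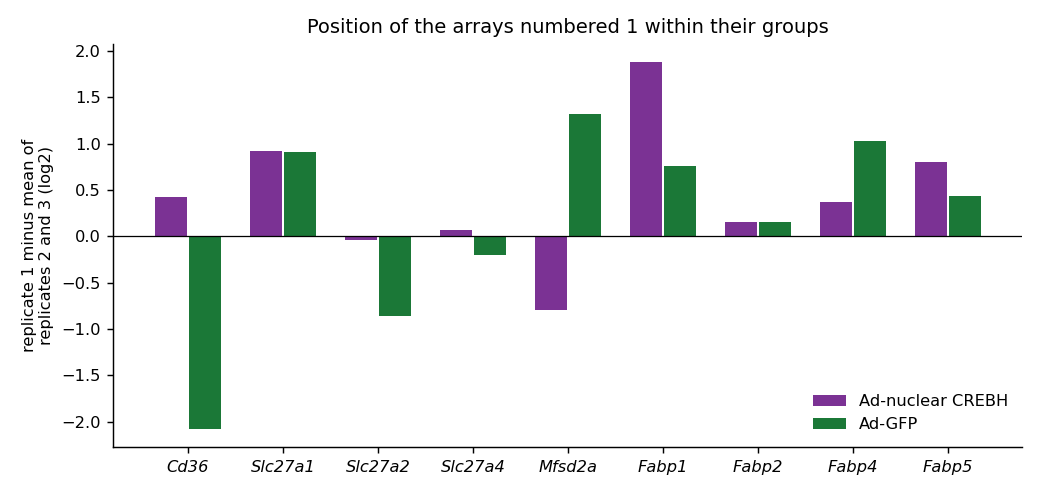
Value of the array numbered 1 minus the mean of the arrays numbered 2 and 3 of its own group (log2), for each of the 9 genes, with Ad-nuclear CREBH in purple left of Ad-GFP in green. Fabp1, Fabp4, Fabp5 and Slc27a1 lie above 0 in both groups, whereas Cd36 (0.43 and -2.07), Mfsd2a (-0.79 and 1.32) and Slc27a4 (0.07 and -0.20) have opposite signs in the Ad-nuclear CREBH and Ad-GFP groups.

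Other carriers and binders of fatty acids and lysolipids were read from a list of 24 genes, all measured. Of these, 6 rose, 6 fell and 12 did not pass the test (median log2 fold change 0.084), where 19.2% of all genes rose and 18.2% fell. With the median of each array subtracted, 9 rose and 5 fell, where 25.6% of all genes rose and 15.2% fell. Acbd4, an acyl-CoA binding protein, was at 7.41, 7.73 and 7.86 in Ad-nuclear CREBH dishes, against 5.62, 6.14 and 6.33 in Ad-GFP dishes, a log2 fold change of 1.64 (adjusted p = 5.8e-04). Spns2, the exporter of sphingosine 1-phosphate, was at 6.85, 6.96 and 7.03 in Ad-nuclear CREBH dishes, against 5.73, 5.28 and 5.42 in Ad-GFP dishes, and rose by 1.47 (adjusted p = 2.4e-04). In both genes the groups did not overlap. The next rises were those of Fabp12 at 0.75, which was dim in both groups, and Acbd3 at 0.74.

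The largest fall of that list was that of Scp2, the sterol carrier protein that also binds fatty acyl-CoA and serves peroxisomal oxidation. It was at 8.69, 8.59 and 8.70 in Ad-nuclear CREBH dishes, against 9.63, 10.44 and 10.32 in Ad-GFP dishes, a log2 fold change of -1.47 (adjusted p = 7.5e-04). Cav1 (caveolin 1), which shapes membrane pits that hold CD36 in other cells, had a log2 fold change of -1.37 (adjusted p = 0.0255). Got2, a mitochondrial aminotransferase also described as a fatty acid binding protein of the plasma membrane, had one of -1.07 (adjusted p = 2.2e-04). Slc27a5, the bile acyl-CoA synthetase FATP5 of liver, was at 7.43, 6.17 and 6.26 in Ad-nuclear CREBH dishes, against 7.51, 7.74 and 7.43 in Ad-GFP dishes. It fell by 0.94 (adjusted p = 0.0496), just under the threshold, with Ad-nuclear CREBH replicate 1 next to the Ad-GFP arrays. Scarb2, a lysosomal relative of CD36, Zdhhc5, a palmitoyltransferase that acts on CD36, and Acbd5, an acyl-CoA binding protein of peroxisomes, did not pass, at -0.32, 0.15 and 0.06. Fabp5, Pmp2, Fabp9, Fabp4 and Fabp12 follow each other on chromosome 3 in the RefSeq annotation, and of these 5 FABP genes only Fabp12 and Pmp2 (log2 fold change 0.34, adjusted p = 0.0105), both dim, passed the test.

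**Figure D4:**
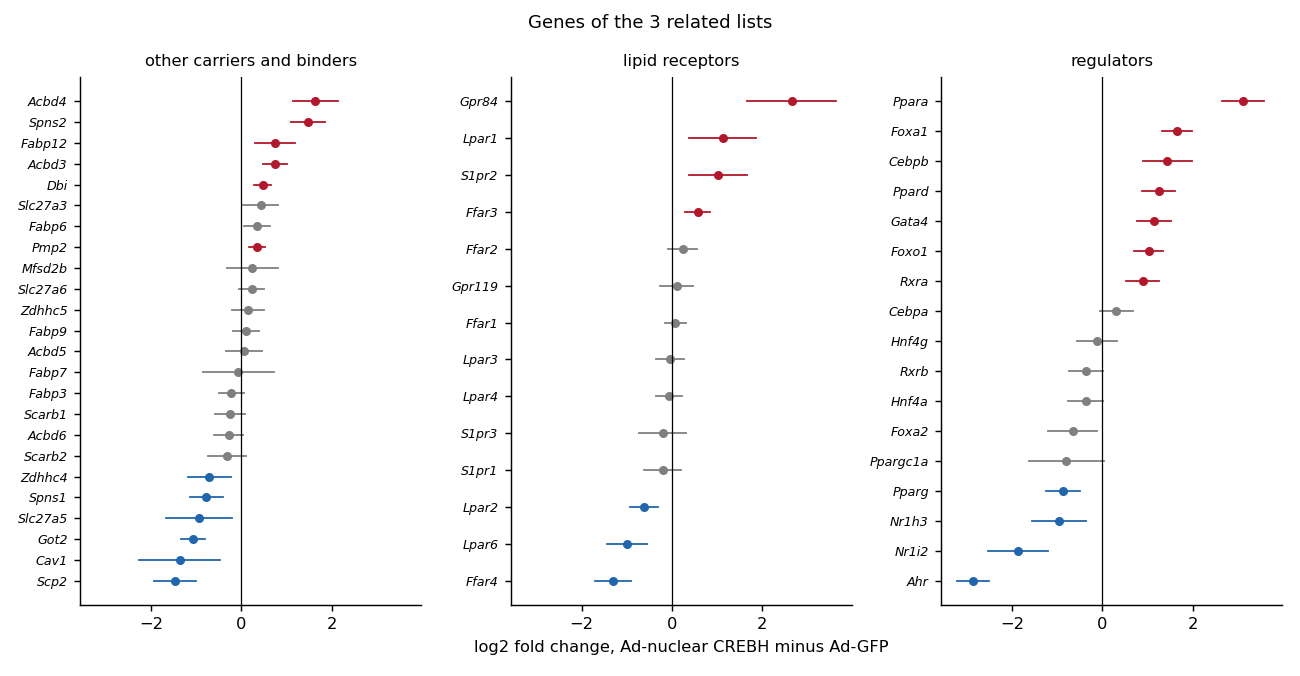
Log2 fold change (Ad-nuclear CREBH minus Ad-GFP) with its 95% confidence interval for the measured genes of 3 lists, the other carriers and binders (24 genes), the lipid receptors (14) and the regulators (17), each ordered by value. Red marks genes that rose, blue genes that fell and gray genes that did not pass the test, and each list holds both directions, with Ppara at 3.11 and Ahr at -2.86 the farthest from 0.

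Of 14 measured receptors for fatty acids and lysophospholipids, which sense the same lipids from outside the cell, 4 rose, 3 fell and 7 did not pass the test (median log2 fold change 0.022). Of all genes, 19.2% rose and 18.2% fell. Gpr84, a receptor of medium-chain fatty acids known from immune cells, was at 6.42, 8.03 and 8.20 in Ad-nuclear CREBH dishes, against 5.08, 4.78 and 4.82 in Ad-GFP dishes. It rose by 2.66 on the log2 scale (SE 0.43, adjusted p = 0.00162), and its lowest Ad-nuclear CREBH array was again replicate 1. The lysophosphatidic acid receptor gene Lpar1 and the sphingosine 1-phosphate receptor gene S1pr2 rose by 1.12 (adjusted p = 0.0258) and 1.02 (adjusted p = 0.0220), and Ffar3, for short-chain fatty acids, by 0.57 (adjusted p = 0.00634) on a dim feature. Ffar4, the receptor of long-chain polyunsaturated fatty acids also called GPR120, was at 5.39, 4.95 and 5.02 in Ad-nuclear CREBH dishes, against 6.46, 6.54 and 6.27 in Ad-GFP dishes, and fell by 1.31 (adjusted p = 5.8e-04). Lpar6 had a log2 fold change of -0.99 (adjusted p = 0.00386), and Lpar2 had one of -0.62 (adjusted p = 0.00833). S1pr1, the brightest of those that did not pass, had one of -0.21, followed by Ffar2 at 0.25 and S1pr3 at -0.20.

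Of 17 measured transcription factors and coactivators known to act on genes of this kind, 7 rose, 4 fell and 6 did not pass the test (median log2 fold change -0.12). The shares of all genes were 19.2% that rose and 18.2% that fell. Ppara encodes the fatty acid receptor of the nucleus that is known to drive genes of fatty acid uptake and oxidation in liver. It was at 9.60, 9.88 and 9.93 in Ad-nuclear CREBH dishes, against 6.59, 6.39 and 7.08 in Ad-GFP dishes, groups that lay 2.51 apart at their nearest arrays, and its log2 fold change was 3.11 (SE 0.20). Foxa1 and Cebpb, liver-enriched factors, and Ppard, a relative of Ppara, rose by 1.65 (adjusted p = 7.2e-05), 1.44 (adjusted p = 0.00166) and 1.25 (adjusted p = 4.8e-04).

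Ahr, Nr1i2, Nr1h3 and Pparg, which encode the aryl hydrocarbon receptor, PXR, LXRα and PPARγ and are receptors known to act on genes of lipid metabolism, fell. Ahr was at 6.87, 6.79 and 6.75 in Ad-nuclear CREBH dishes, against 9.37, 9.87 and 9.76 in Ad-GFP dishes, and fell by 2.86 (SE 0.16, adjusted p = 1.8e-05). Nr1i2 was at 5.11, 4.80 and 4.94 in Ad-nuclear CREBH dishes, against 6.16, 7.33 and 6.97 in Ad-GFP dishes, a log2 fold change of -1.87 (adjusted p = 0.00125). The groups did not overlap for either gene. Nr1h3 fell by 0.97 (adjusted p = 0.0187) and Pparg by 0.88 (adjusted p = 0.00355). Hnf4a, a master regulator of hepatocyte genes, Cebpa and Foxa2 did not pass the test, at -0.37 (adjusted p = 0.129), 0.31 (adjusted p = 0.169) and -0.66 (adjusted p = 0.0609). Whether any of these factors has a part in the values of the transporters was not tested.

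Many genes followed the same course over the 6 arrays, which share the contrast between the groups. With Fabp2, the gene of the largest rise among the 9, the highest Pearson correlations over the 6 arrays were those of Usp2, Trim27 and Umps, at 0.9997, 0.9995 and 0.9993, and 882 genes exceeded 0.98. With Cd36 they were those of Acaa1a, a peroxisomal thiolase, Saa3, an acute phase protein, and Slc44a1, a choline transporter, at 0.9993, 0.9992 and 0.9991, and 583 genes exceeded 0.98. These are descriptions over 6 arrays in 2 groups, whose difference alone gives high values.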

How the data were processed

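Expression was measured on 6 arrays, 3 of Ad-nuclear CREBH and 3 of Ad-GFP, and groups and replicate numbers came from the sample labels. The authors deposited log2 values of expression, computed by RMA. Its version and the array definition are not given in the sources used here, and the methods and the labels differ on the kits for RNA extraction and labeling of 100 ng RNA. Symbols came from the platform annotation, under which 21218 features carried 1 symbol, 1881 several and 12457 none. Only the first kind was used, and each of 18820 genes was read from its feature of highest mean.

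The values were used as deposited and fitted with limma 3.58.1 under R 4.3.3 (lmFit, then eBayes with trend, 4 residual degrees of freedom and a prior of 3.97), with no covariate and Benjamini-Hochberg adjustment over all genes. Ratios of gene pairs were fitted without trend, with a prior from the 5 pairs alone, and tested by an exact two-sided permutation test. Both were adjusted over the 5 pairs. Of 119 genes in the lists of carriers, receptors, regulators and cell type markers, 111 were measured. The members and lists were chosen with earlier results of these data known. Named were all 9 members, Creb3l3, in each list of carriers, receptors and regulators the up to 4 largest rises and falls and the up to 3 brightest genes that did not pass, in marker lists the brightest 2, and the 3 genes most correlated with Fabp2 and with Cd36. Clec4f, Vsig4, Timd4, Marco, Cd5l, Lyz2, Csf1r, Adgre1, C1qa, Ptprc, Apoa1, Tdo2, Fgb, Tat, Cps1, Pmp2, Adipoq, Plin1, Lep and Retn were named after their values were seen. Promoter windows and gene order came from RefSeq (GRCm38.p6). Alternatives covered the normalization, a block for the replicate number, the variance prior, the features per gene, a level filter, the expression minimum and leaving out arrays. Figures were drawn with matplotlib 3.10.9.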

Additional observations from a re-analysis of the deposited data

How the results depend on the processing

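Fabp2, Mfsd2a, Cd36 and Slc27a4 kept their direction and their call under all 15 alternatives, with log2 fold changes of 2.98 to 3.31, 1.51 to 2.44, -4.94 to -3.72 and -0.74 to -0.51. Slc27a4 and Mfsd2a came closest to the threshold, with adjusted p-values up to 0.0388 and 0.0351. Fabp4, too dim for the fit of genes above the median level, had 14 alternatives, and neither it nor Slc27a2 passed under any.

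The calls that changed were those of genes in which the arrays numbered 1 lay high in both groups. With both of these arrays left out, the log2 fold changes of Fabp5, Slc27a1 and Fabp1 were -0.80 (adjusted p = 2.9e-04), -0.46 (adjusted p = 0.00707) and -0.49 (adjusted p = 0.0312). Of the 9 genes, 5 then fell, 8 had groups that did not overlap, and 3 met the study's criteria, against 25.3%, 71.4% and 9.56% of all genes in that setting. Leaving out each array in turn moved Fabp5 between -0.95 and -0.54, the number of genes whose groups did not overlap between 4 and 7, and the number meeting the criteria between 1 and 3. The highest of these counts were 7 without Ad-nuclear CREBH replicate 1, where 58.5% of all genes did not overlap, and 3 without Ad-GFP replicate 1, where 8.95% of all genes met the criteria. The criteria took in 2 of the 9 genes with no expression minimum, 0 with both group means over the minimum and 0 with every array over it. The share of all genes was not computed in these settings, so these counts cannot be set against it.

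With the replicate number as a replicate block, Fabp5 (-0.68, adjusted p = 0.0122) and Slc27a1 (-0.45, adjusted p = 0.0308) also passed, so that 4 of the 9 genes fell, against 19.7% of all genes. The deviations of the same-numbered arrays from their group means correlated at 0.178, 0.0729 and 0.139 across genes, which does not establish that the numbers pair the dishes. Centring each array on its median brought the median log2 fold change, over all genes, to 0.18, with a main value of 0.039, and gave 4814 genes that rose and 2852 that fell, against 3615 and 3427 in the deposited scale, and under it 2 of the 9 genes rose and 2 fell. Of the carriers 9 then rose and 5 fell, of the receptors 4 and 3, and of the regulators 8 and 4, against 25.6% and 15.2% of all genes. Quantile normalization gave 6 and 7, 4 and 3, and 7 and 5, against 18.4% and 19% of all genes. The limits are those of 3 arrays per group and of RMA values without a background flag.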
